A study of Homo sapiens and Mus musculus with 33 samples.

Results

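In HCT116 cells, a human colon carcinoma line, 135 genes had less RNA after treatment with MS275 in each of 4 pairs of libraries. They were taken from 35805 genes of the deposited RNA count table, of which 13213 had a mean of at least 1 CPM (a gene's count scaled to the same total count in each library) over the 8 RNA libraries. A gene entered the set when log2 of its CPM plus 0.5 under MS275, minus the same under the DMSO control of the same replicate number, was -0.4 or lower in all 4 pairs. Since these RNA values chose the genes, their fall is given as a description, and nothing is read from the calls that tests across all genes made among them. The histone libraries of the same line played no part in the choice and were tested. A mirrored rule, a rise of at least 0.4 in every pair, held for 548 genes, which are called rising genes below.

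The cells received 5 µM MS275 or the solvent DMSO for 18 h, and all of them came from this 1 line, so other lines and normal colon cells under MS275 were not analysed here. RNA was sequenced from 4 libraries per treatment, and chromatin was immunoprecipitated with antibodies to crotonylated (H3K18cr) or acetylated (H3K18ac) lysine 18 of histone H3, with 3 libraries per mark and treatment and 1 input library per treatment. The methods name fewer H3K18cr replicates than the 3 in the peak table, and all 3 were used. The methods call the RNA libraries biological replicates, but the labels do not say which libraries of the 2 assays share a culture, so p-values measure the spread between these libraries. Untreated mouse colon epithelium provided RNA and histone libraries that are used only for levels.

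MS275 (entinostat) blocks class I histone deacetylases, enzymes that take acetyl groups, and also crotonyl groups, off histone lysines. Acetylation and crotonylation of H3 lysine 18 are both found around the start sites of active genes, and p300 and CBP can add either group. Inhibitors of these enzymes are known to raise some genes and lower others in the same cells. In bulk RNA, fewer cells that use a gene and less of its RNA per cell cannot be told apart.

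The RNA libraries held 35608533 to 53415604 counted reads. Replicate 3 of both treatments stood apart, with 9.28% of its reads on mitochondrial genes under DMSO and 10.3% under MS275, against 1.57% to 3.19% in the other 6 libraries. DMSO replicate 3 was the highest of the 4 DMSO libraries for 66 of the 135 genes (48.9%), against 24.7% of all expressed genes, and MS275 replicate 3 was the highest MS275 library for 60 of them (44.4%, against 26.7%). Replicate 3 was the lowest DMSO library for 22.2% of the set, against 49.4% of all expressed genes. It was the lowest MS275 library for 26.7% of the set, against 51.0%. The part of replicate 3 in the choice of genes was not tested. Without its pair the rule took 243 genes, which by construction include all 135. Of 12 epithelial markers, 10 were expressed, with a summed level of 4090 to 5592 CPM under DMSO and 5180 to 6102 CPM under MS275. Of 14 stromal, endothelial and immune markers, only COL1A1 and CD68 had a mean of 1 CPM, 10 lay under 0.1 CPM, and their sum was 12.3 to 15.1 CPM under DMSO and 15.6 to 30.5 CPM under MS275.

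MKX, which encodes the Mohawk homeobox transcription factor of the TALE class, known for its role in tendon, had the third largest mean fall of the set and by far the highest RNA level among the 12 with the largest falls. The deposited gene (ENSG00000150051) lies at chr10:27672875-27746060 on the minus strand (GRCh38). It had 51.6, 58.5, 29.5 and 68.3 CPM in DMSO libraries 1 to 4 and 26.8, 18.97, 10.3 and 25.1 CPM in MS275 libraries 1 to 4, so the lowest DMSO library lay above the highest MS275 library. The mean log2 change over pairs was -1.36 ± 0.29 (SD, n = 4 pairs). JADE2 (ENSG00000043143, chr5:134524312-134583230, plus strand) encodes a PHD finger protein that acts as a scaffold of the HBO1 histone acetyltransferase complex. Its RNA was at 66.7, 83.1, 54.6 and 74.6 CPM under DMSO and at 32.6, 37.1, 23.3 and 40.4 CPM under MS275, again with no overlap, and the mean log2 change was -1.07 ± 0.15 (SD, n = 4 pairs).

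The start regions of 5 genes of the set are printed here because the histone results below turn on them: MKX and JADE2 are followed in both RNA and marks, with larger falls than most of the set, MEPCE and ALYREF had the start peaks with the largest relative decreases in crotonylation and acetylation, and EREG was an abundant gene whose start peak was called lower in crotonylation but not in acetylation. Each sequence is the RefSeq promoter table's 300 bases in GRCh38.p14, 5′ to 3′ on the strand of the gene, from 250 bases before the start to 50 after it. Capitals mark the GC box GGGCGG, the CCAAT box, the TATA box with its letters TATAAA, the E-box with its letters CACGTG and the cyclic AMP response element (CRE) with its letters TGACGTCA, on either strand, and a match is a description of the letters. All 5 windows lie inside a peak of the deposited list.
MKX, chr10:27745770-27746069, minus strand: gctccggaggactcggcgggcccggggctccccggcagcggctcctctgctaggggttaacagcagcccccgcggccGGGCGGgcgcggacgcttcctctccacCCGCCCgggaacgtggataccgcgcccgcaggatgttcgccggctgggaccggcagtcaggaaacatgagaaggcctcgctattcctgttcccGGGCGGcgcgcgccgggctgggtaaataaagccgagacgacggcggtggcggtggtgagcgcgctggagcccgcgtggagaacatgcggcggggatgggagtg
JADE2, chr5:134523759-134524058, plus strand: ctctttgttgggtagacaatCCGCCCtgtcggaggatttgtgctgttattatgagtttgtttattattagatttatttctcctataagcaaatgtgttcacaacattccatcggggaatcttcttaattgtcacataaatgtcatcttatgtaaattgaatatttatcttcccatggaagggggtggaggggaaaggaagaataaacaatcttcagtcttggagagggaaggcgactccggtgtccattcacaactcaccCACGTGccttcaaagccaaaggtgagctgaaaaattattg
MEPCE, chr7:100428540-100428839, plus strand: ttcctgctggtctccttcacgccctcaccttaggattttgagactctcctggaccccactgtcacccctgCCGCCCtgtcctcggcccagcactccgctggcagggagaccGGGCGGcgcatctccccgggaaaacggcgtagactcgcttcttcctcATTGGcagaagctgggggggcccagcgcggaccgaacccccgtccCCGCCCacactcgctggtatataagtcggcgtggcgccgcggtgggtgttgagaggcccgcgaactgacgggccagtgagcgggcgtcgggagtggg
ALYREF, chr17:81891538-81891837, minus strand: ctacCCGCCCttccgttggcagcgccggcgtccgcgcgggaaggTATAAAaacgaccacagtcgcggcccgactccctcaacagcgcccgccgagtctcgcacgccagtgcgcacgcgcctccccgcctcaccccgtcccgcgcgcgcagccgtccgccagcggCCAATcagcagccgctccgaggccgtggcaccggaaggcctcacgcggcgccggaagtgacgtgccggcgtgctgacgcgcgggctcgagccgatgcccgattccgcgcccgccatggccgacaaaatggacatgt
EREG, chr4:74364895-74365194, plus strand: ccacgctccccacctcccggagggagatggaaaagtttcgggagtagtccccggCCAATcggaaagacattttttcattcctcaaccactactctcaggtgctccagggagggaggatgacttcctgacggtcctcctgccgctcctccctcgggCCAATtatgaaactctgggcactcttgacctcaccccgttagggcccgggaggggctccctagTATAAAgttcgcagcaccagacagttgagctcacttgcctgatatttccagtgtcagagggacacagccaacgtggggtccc
The windows differ in CpG content, with 50 CpG in ALYREF, 40 in MKX, 28 in MEPCE and 12 in EREG, and 6 in JADE2. Promoter sequences were found for 100 of the 135 genes. A GC box was present in 69% of them, against 71.8% for all expressed genes and 44.6% of all 27305 promoters of the table, and the median number of CpG was 24, against 27 and 14. The E-box was present in 16% (10.3% of expressed genes and 7.43% of all promoters), the CCAAT box in 31% (36.7% and 35.7%), the TATA box in 8% (5.14% and 11.95%) and the CRE in 2% (3.28% and 1.98%).

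Over all 135 genes the mean log2 change ranged from -1.48 to -0.47 with a median of -0.70, and 17 genes were at -1 or lower. The median was -0.69, -0.77, -0.67 and -0.59 in pairs 1 to 4, while that of all expressed genes stayed between -0.01 and 0.05. Pair 2 gave the largest fall for 51 genes and pair 4 for 13. Every DMSO library lay above every MS275 library in 66 of the 135, and in 2.32% of all expressed genes. In the other 69 the groups overlapped, since the rule compares libraries of 1 number and the replicates of a treatment differed.

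**Figure D1:**
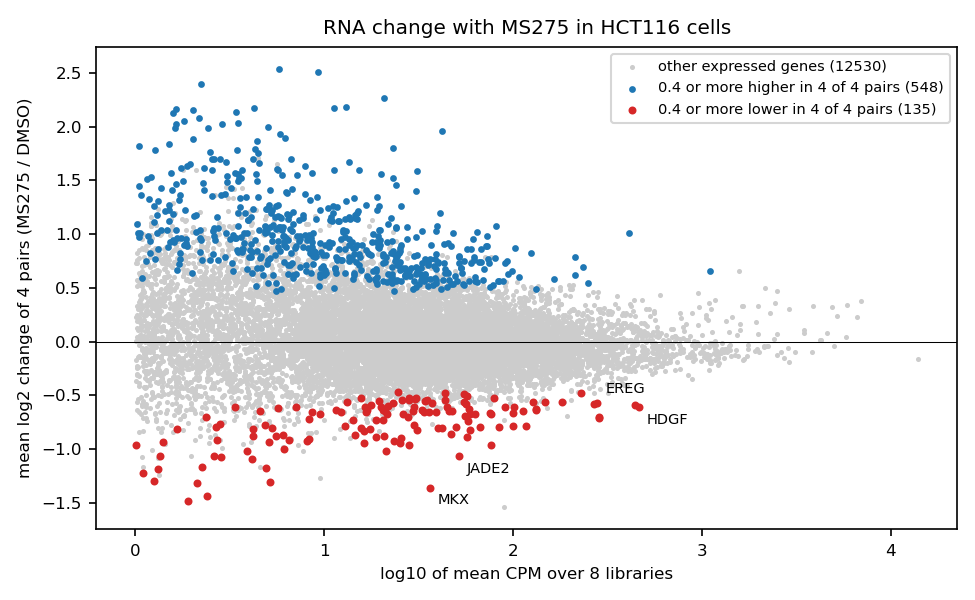
Mean log2 RNA change over the 4 pairs (vertical axis) against the mean CPM over the 8 libraries (horizontal axis, log10) for the expressed genes, with the 135 genes of the set and the rising genes in colour. The set lies between -1.48 and -0.47 on the vertical axis and reaches up to the level of HDGF, with its largest falls at low CPM.

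The replicate numbers paired the RNA libraries, and the test across all genes depended on them. With the replicate number in the model, edgeR's quasi-likelihood test called 114 of the 135 lower at an adjusted p under 0.05, beside 6.55% of the 14961 genes tested. Without it, the test called 0 of the 135, 0 genes lower in all and 1 higher (0.00668%), with 987 genes at an unadjusted p under 0.05, and DESeq2 without pairing called 22 of the 135, beside 0.187% of all genes tested. The rule used the same contrast, so nothing is read from these shares.

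Genes lay close to the threshold on both sides. Just inside it were IRX4, DIS3L and DUSP2, whose least falling pair was at -0.402, -0.403 and -0.404. HILPDA, TARBP2 and PSMG4 lay just outside, at -0.399, -0.399 and -0.397.

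The genes were grouped by known role after their names were seen, and apart from MKX, JADE2 and the genes with the largest falls, highest levels or most extreme peaks, those named below were chosen after their values were seen. The transcription factors numbered 19 and had a median mean log2 change of -0.81. NR2F1, a nuclear receptor also called COUP-TFI, was the most abundant of them. It had 235, 467, 247 and 447 CPM under DMSO and 142, 293, 133 and 307 CPM under MS275, with a mean log2 change of -0.71 ± 0.15 (SD, n = 4 pairs). Its groups overlapped, because DMSO libraries 1 and 3 lay below MS275 libraries 2 and 4, although each pair fell.

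HOXB8 and HOXB9, neighbouring homeobox genes that pattern the body axis, both belonged to the set. HOXB8 had 62.8, 78.7, 84.1 and 70.4 CPM under DMSO and 34.4, 45.04, 41.7 and 38.1 CPM under MS275, a mean log2 change of -0.88 ± 0.09 (SD, n = 4 pairs) with no overlap. That of HOXB9 was -0.54 ± 0.12. GATA2, a zinc finger factor of blood and endothelial development, had 23.5, 44.4, 31.6 and 33.5 CPM under DMSO and 15.99, 20.7, 13.8 and 19.3 CPM under MS275, a mean change of -0.89 ± 0.28, also with no overlap. Among the rest, TFAP4, a helix-loop-helix factor, changed by -0.82, ATF5, a leucine zipper factor of stress responses, by -0.94, NFKB1, which encodes the p105 and p50 subunits of NF-kB, by -0.64, and TEAD2, a DNA-binding partner of YAP, by -0.65.

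MKX and IRX4 were the only members of the set among 13 expressed TALE homeobox genes. In the paired fit across all genes, 2 of the 13 were called lower and 2 higher (beside 6.55% of all genes lower and 7.83% higher), the higher ones being MEIS3 (log2 change 0.40) and PBX3 (0.62), and the median of the list was 0.10. IRX4, an Iroquois factor, had 22.4, 19.2, 25.03 and 15.4 CPM under DMSO and 12.96, 10.4, 18.8 and 10.6 CPM under MS275, and MS275 library 3 lay above DMSO library 4. JADE2 was the only member among the 12 genes of the HBO1 and MOZ acetyltransferase complexes. Of those 12, the paired fit called JADE2 (-1.09), the acetyltransferase KAT6B (-0.54), the scaffold BRD1 (-0.33) and the reader ING5 (-0.55) lower (4 of 12, beside 6.55% of all genes) and JADE3 (0.42) higher, with a list median of -0.26 beside 0.01 for all genes tested. MKX, IRX4 and JADE2 were picked by the rule for falling, so their calls support neither list's direction. The lists of DNA repair, replication, mitosis, Wnt, MAPK, YAP, BMP, Notch, intestinal factor, MYC target, sterol and marker genes held 0 of the 135, although some of their genes were called. In the paired fit 9 of the 30 S phase and replication genes were called lower and 0 higher, with a median of -0.21. Of the repair genes 2 of 29 were called lower and 1 higher, of the MYC targets in ribosome biogenesis 3 of 20 lower and 0 higher, and of the mitosis genes 4 of 26 lower and 7 higher. The Wnt, Notch and sterol lists had 0 called lower and 6 or 7 higher, and the MAPK, YAP, BMP and intestinal factor lists 1 or 2 lower and 2 to 6 higher. The epithelial markers had 3 of 10 lower and 4 higher, the stromal, endothelial and immune markers 0 of 3 lower and 1 higher, and of the 4 class I deacetylase genes 0 were called in either direction.

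Chromatin and general transcription proteins accounted for 9 genes with a median mean change of -0.70. ANP32B, a histone chaperone, was the most abundant, at 417, 316, 389 and 289.8 CPM under DMSO and 249, 201, 247 and 172 CPM under MS275. Every DMSO library was above every MS275 library, and the mean log2 change was -0.70 ± 0.06 (SD, n = 4 pairs). GTF3C6, a subunit of the RNA polymerase III factor TFIIIC, changed by -1.01 ± 0.19, from 28.9 to 13.7 CPM on average. The group also held UBTF (-0.63), the upstream factor of ribosomal RNA genes, KAT2A (-0.64), the acetyltransferase GCN5, EPC1 (-0.87), a subunit of the TIP60 complex, PHF19 (-0.82), a Polycomb-like partner of PRC2, H2AFY2 (-0.62), a macroH2A variant, and MEPCE (-0.53), the capping enzyme of 7SK RNA.

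The 9 genes of RNA processing, the ribosome and translation had a median mean change of -0.65. ALYREF, an mRNA export adaptor, had 465, 275, 362 and 218 CPM under DMSO and 310.3, 188, 262 and 136 CPM under MS275, a mean log2 change of -0.57 ± 0.09 (SD, n = 4 pairs). Its groups overlapped, with DMSO libraries 2 and 4 below MS275 library 1. U2AF2, which binds the polypyrimidine tract at the 3′ splice site, changed by -0.58 ± 0.09, EXOSC8, an exosome subunit, by -0.80 ± 0.28, and DCPS, the scavenger decapping enzyme, by -0.73 ± 0.23. Protein turnover gave another 9, among them KEAP1 (-0.78 ± 0.14), the adaptor through which the factor NRF2 is degraded, and PSMB5 (-0.56 ± 0.10), a catalytic subunit of the proteasome.

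The 11 ligands, receptors and signalling enzymes included the most abundant RNAs of the set. HDGF, a heparin-binding growth factor, had 624, 498, 689 and 421 CPM under DMSO and 424, 333, 431 and 275 CPM under MS275, and the mean log2 change was -0.61 ± 0.05 (SD, n = 4 pairs). MS275 libraries 1 and 3 lay above DMSO library 4, so its groups overlapped. EREG, which encodes the EGF receptor ligand epiregulin, had 616, 642, 289 and 569 CPM under DMSO and 453, 394, 204 and 344 CPM under MS275, with a change of -0.59 ± 0.14, and DMSO library 3 was below all MS275 libraries but that of its own pair. PDE4B, a phosphodiesterase that breaks down cyclic AMP, changed by -0.96 ± 0.20, HTR7, a serotonin receptor coupled to cyclic AMP, by -0.96 ± 0.31, and ADORA2B, an adenosine receptor coupled to cyclic AMP, by -0.60 ± 0.19.

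Innate immune and cell death genes made up 14 of the set, with a median mean change of -0.68. They included the adaptor MYD88 (-0.64 ± 0.19, SD over 4 pairs) and the kinase IRAK1 (-0.56 ± 0.15), which act downstream of Toll-like receptors, as well as the lymphotoxin receptor LTBR (-0.66 ± 0.19) and the apoptotic protease CASP8 (-0.54 ± 0.08). IRAK1 had 179, 137, 194 and 97.4 CPM under DMSO and 134, 80.2, 129.9 and 69.04 CPM under MS275. MYD88 had 21.9, 28.1, 18.5 and 31 CPM under DMSO and 14.9, 19.7, 9.55 and 20.5 CPM under MS275. In both genes the groups overlapped, since DMSO library 4 of IRAK1 and DMSO library 3 of MYD88 were as low as MS275 libraries of other numbers.

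**Figure D2:**
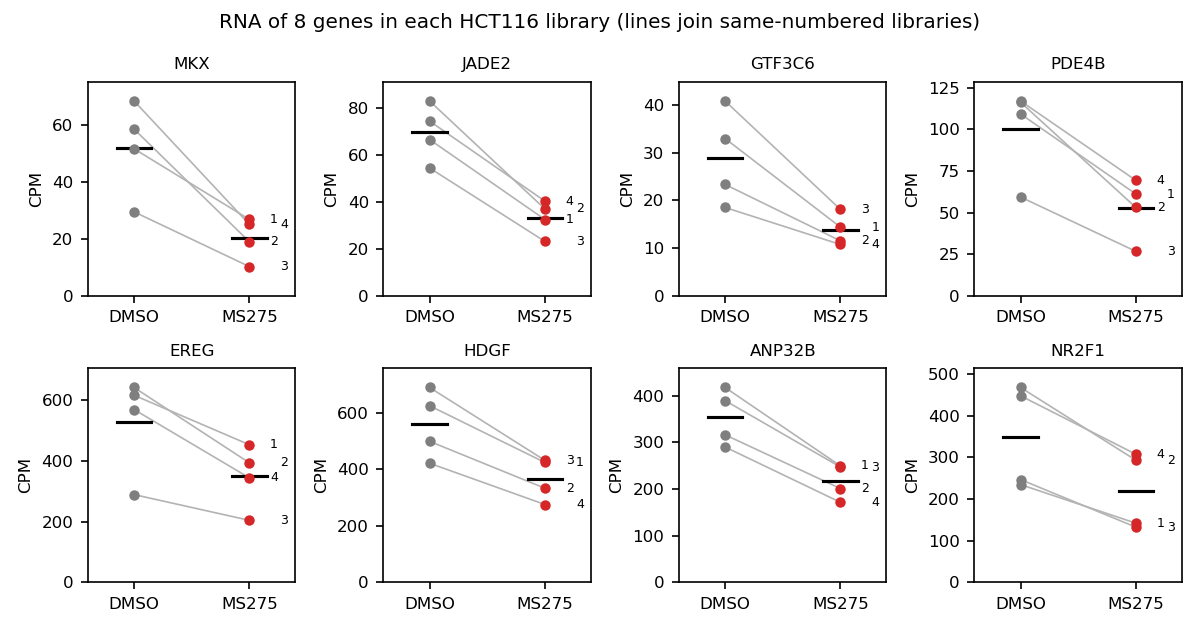
CPM of selected genes of the set in each DMSO and MS275 library (vertical axis), with a line joining the libraries of 1 replicate number, which is printed beside the MS275 point, and a bar at each treatment's mean. Every line descends, as the rule requires, while the level of a replicate number differs between genes.

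The largest mean falls came from genes with few reads that share their place with another gene. After RP11-1055B8.1 (-1.48 ± 1.08, SD over 4 pairs), GCNT3 (-1.44 ± 0.78) and MKX came GPER1, IKBKG, NS3BP, PARP10, CTC-398G3.6, TMEM80, AC009005.2, CLDN2 and PRRT3-AS1, with mean changes from -1.31 to -1.07. Apart from MKX, these genes had a mean of at most 5.2 CPM over the 8 libraries, and each overlapped another gene. RP11-1055B8.1 lies opposite BAHCC1, a gene at 46.1 CPM, and had 1.96, 3.03, 5.32 and 1.93 CPM under DMSO and 0.692, 0.737, 0.253 and 1.33 CPM under MS275. For IKBKG, TMEM80 and AC009005.2, DMSO library 3 lay far above the other 3 DMSO libraries. The libraries were made with a directional kit, but the use of strand in counting was not given in the sources used here, so whether reads of such a gene and its partner were separated is not known. PMF1 and PMF1-BGLAP, both in the set, also overlap each other, and whether they share reads was not tested.

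The spread between pairs followed the level. The median SD of the log2 change over pairs was 0.48 for the 25 genes of 1 to 5 CPM, 0.25 for the 32 of 5 to 20 CPM, 0.16 for the 63 of 20 to 100 CPM and 0.12 for the 15 above. Over the set, 61 genes (45.2%) overlapped another expressed gene, against 36.3% of all expressed genes, and 39 (28.9%, against 20.01%) overlapped one of higher CPM. The 16 antisense and unnamed noncoding loci had a median of 2.82 CPM.

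The set had a lower median gene length than expressed genes. Its median deposited length was 16716 bp, against 31398 bp for all expressed genes and 73771.5 bp for the rising genes, and 54.8% of the set, 37.3% of expressed genes and 24.5% of rising genes were under 20 kb. Per kb of exon, the set's median DMSO level was 6.71 CPM, beside the 5.30 CPM of expressed genes and above the 1.06 CPM of rising genes. On this scale ALYREF (209 CPM per kb) and ANP32B (189) were above HDGF (149.99), while MKX (12.6) was above JADE2 (6.29). Chromosome 19 carried 11.9% of the set and 7.30% of expressed genes, and chromosome 11 carried 10.4% and 5.75%. These are descriptions, as the set was chosen on counts that depend on level and length.

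The deposited peak list gives, for each peak, the log2 of reads scaled to the largest library, written below as scaled reads. Such values are relative: a lower value means a smaller share of a library's reads in that peak, and a change in the total amount of a mark in the cells cannot be seen in them. Every higher, lower, rise or fall of a mark below is meant in that sense. Of its 40266 peaks, 266 lay in or within 2 kb of 129 of the 135 genes, and 118 of these, at 116 genes, lay within 1 kb of the 5′ end of the deposited gene and are called start peaks. A start peak was present at 85.9% of the set and 85.5% of expressed genes. The genes with no peak were GCNT3, BTN3A3, ZXDA, ZNF443, RP3-468K18.7 and RP3-460G2.2. The start peaks of the set were wider than those of expressed genes, with a median of 3450 against 2700 bp on the 1 peak list for all libraries. In DMSO cells their median log2 ratio to input was 1.99 against 1.72 for H3K18cr and 2.10 against 1.81 for H3K18ac.

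The share of H3K18cr reads at the start of these genes was lower with MS275. With limma fitted on all peaks, 98 of the 118 start peaks (83.1%) were called lower and 0 higher, and their median log2 change was -0.71, from -1.21 to 0.13. Over the whole list 23.0% of the 40026 peaks tested were called lower and 0.232% higher. The nearer reference is the start peaks of all expressed genes, of which 62.5% were called lower with a median of -0.59. At rising genes it was 18.6% and -0.22. In 96 of the 118 (81.4%), every MS275 library lay below every DMSO library, against 68.9% of the start peaks of expressed genes and 29.8% of all peaks.

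The share of H3K18ac reads was lower at most of the same peaks. For H3K18ac, limma called 86 of the 118 (72.9%) lower and 0 higher, with a median of -0.81 and a range from -1.29 to 0.52, beside 16.3% of all peaks called lower and 0.264% higher. The start peaks of expressed genes were lower in 49.4% of cases (median -0.66) and those of rising genes in 11.1% (median -0.22). The MS275 libraries all lay below the lowest DMSO library in 79 of the 118 start peaks (66.9%), against 55.9% of the start peaks of expressed genes and 23.0% of all peaks. In 80 peaks both marks were called lower, in 18 only H3K18cr, in 6 only H3K18ac and in 14 neither, and for the 9894 start peaks of expressed genes these counts were 4445, 1741, 449 and 3259. The change in acetylation was not called different from that in crotonylation at any of the 266 peaks, nor at any in the list (limma interaction, 0 of 40266, with 739 at an unadjusted p under 0.05). Across the 118 start peaks the changes in the 2 marks had a Spearman rho of 0.72, and 0.78 over start peaks of expressed genes, with peak position and width in common.

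The number of calls depended on which replicate number was in the fit, more so for acetylation. Without replicate 1, 2 or 3, which leaves out the DMSO and the MS275 library of that number and keeps 2 of each, H3K18cr was called lower at 44, 31 and 109 of the 118 start peaks, and H3K18ac at 106, 0 and 7. Over the whole list the same fits called 2854, 2020 and 14902 of 40026 peaks lower in H3K18cr and 11783, 1 and 843 of 40122 in H3K18ac, so the calls of the set moved with those of all peaks and every H3K18ac call named below was lost without replicate 2. The medians stayed below 0 in every case, between -0.87 and -0.63 for H3K18cr and between -1.13 and -0.52 for H3K18ac. By replicate number, the median change at these peaks was -0.90, -0.88 and -0.41 for H3K18cr and -0.17, -0.89 and -1.33 for H3K18ac, while the input changed by -0.06. With TMM scaling, which moves the H3K18cr median over all peaks from -0.20 to 0.04 and the H3K18ac median from -0.19 to 0.07, 75 (H3K18cr) and 86 (H3K18ac) start peaks were called lower and 0 higher, against 34.2% and 50.1% of the start peaks of expressed genes. Over the whole list that scaling gave 4424 lower and 763 higher in place of 9210 and 93 for H3K18cr, and 6612 and 1867 in place of 6534 and 106 for H3K18ac.

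**Figure D3:**
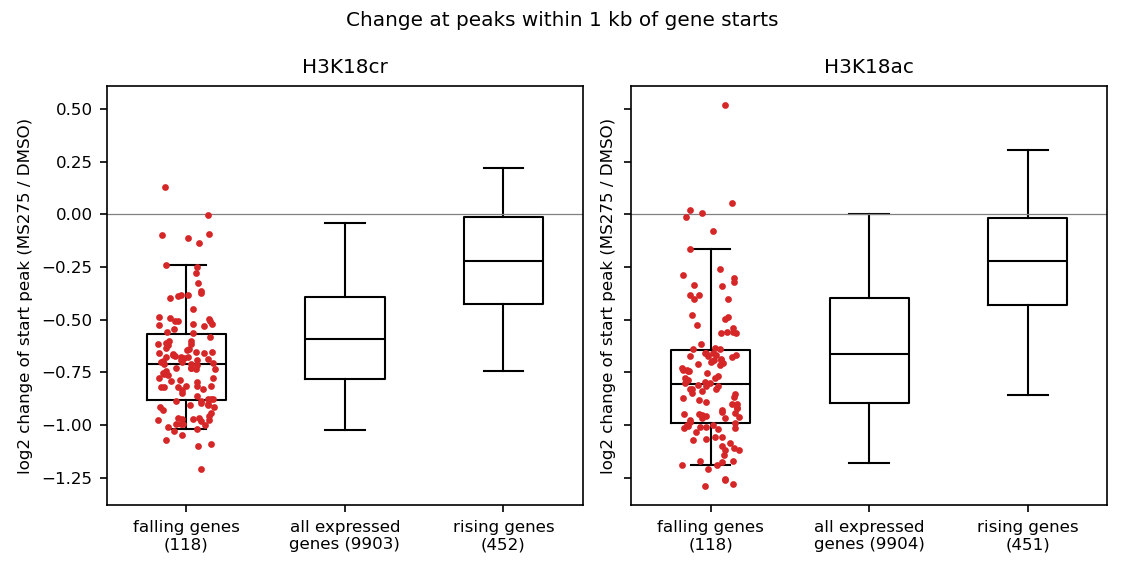
Distribution of the log2 change with MS275 at start peaks of the set, of expressed genes and of rising genes, for H3K18cr and H3K18ac, with boxes from the lower to the upper quartile, a line at the median, whiskers from the 5th to the 95th percentile and points for the start peaks of the set. The set has its median at -0.71 and -0.81, below the expressed genes at -0.59 and -0.66, and the rising genes lie nearest 0 at -0.22 for both marks.

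At MKX the start peak (chr10:27741301-27746850) spans the printed promoter and had a lower share of reads in both marks. Its H3K18cr was 520, 472 and 415 scaled reads in DMSO libraries 1 to 3 and 199, 237 and 255 under MS275, a log2 change of -1.03 ± 0.16 (SE, limma, adjusted p = 4.19e-05). H3K18ac was 385, 379 and 519 scaled reads under DMSO and 231, 209.5 and 217 under MS275, a change of -0.95 ± 0.25 (SE, limma, adjusted p = 0.00293). The groups did not overlap in either mark, and the input was level at 71.7 and 69.3 scaled reads.

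At JADE2 the start peak (chr5:134523001-134529450) had 811, 766 and 582 scaled H3K18cr reads under DMSO and 366, 372 and 394 under MS275, a log2 change of -0.92 ± 0.16 (SE, limma, adjusted p = 9.42e-05). Its H3K18ac was 471, 609 and 908 scaled reads under DMSO and 469, 257 and 301 under MS275, a change of -0.95 ± 0.25 (SE, limma, adjusted p = 0.0027). Here MS275 library 1 came within a few reads of DMSO library 1, and the groups touched without overlap. Without replicate 3 the H3K18ac call was lost at both genes, with adjusted p = 0.092 at MKX and 0.22 at JADE2 (limma). The other 2 peaks of JADE2 were not called in either mark.

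Among the start peaks of the set, the largest relative decrease in H3K18cr was at MEPCE (chr7:100427701-100431300), with 524, 475 and 602 scaled reads under DMSO and 200.2, 191 and 317 under MS275 and a log2 change of -1.21 ± 0.17 (SE, limma, adjusted p = 2.88e-05). GTPBP6, a GTPase, ZNF784, a zinc finger protein, and DCPS followed, at -1.10, -1.09 and -1.07. The largest relative decrease in H3K18ac was at ALYREF (chr17:81888151-81893250), with 575, 822 and 1038 scaled reads under DMSO and 409, 266 and 309 under MS275 and a change of -1.29 ± 0.25 (SE, limma, adjusted p = 4.84e-05). ITPKC, an inositol trisphosphate kinase, C7orf55 and MEPCE came next, at -1.28, -1.26 and -1.26.

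Some genes of the set had little change in the marks at their deposited start. The start peak of MAPK13, a stress-activated p38 kinase, had 132, 124 and 109.8 scaled H3K18cr reads under DMSO and 119, 133 and 112 under MS275, a log2 change of -0.01 ± 0.18 (SE, limma, adjusted p = 0.99). Its RefSeq start lies over 1 kb away under another peak (chr6:36129601-36132900), where H3K18cr was called lower (-0.53, adjusted p = 0.0294) and H3K18ac was not (-0.56, adjusted p = 0.12). MPP7, a junction scaffold protein, had a change of 0.13 in H3K18cr and -0.16 in H3K18ac at its start peak, neither called. The start of MPP7 in RefSeq lies over 1 kb from the deposited 5′ end and outside that peak, in another peak of the gene (chr10:28301251-28304400) where H3K18cr was called lower (-0.57, adjusted p = 0.0138) and H3K18ac was not (-0.54). The other start peaks with the highest estimates, at NLRX1 and CLDN2 for H3K18cr and at CLDN2, SH3TC1 and KCNN4 for H3K18ac, reached at most 0.52, and none was called. The RefSeq start of SH3TC1 also lay outside its start peak. The sign of several of these estimates near 0 depended on the scaling or on 1 replicate. At EREG, H3K18cr was called lower (-0.53, adjusted p = 0.0111) and H3K18ac was not (-0.40, adjusted p = 0.289). Taking the peaks over RefSeq starts in place of deposited 5′ ends gave 85 peaks at 86 genes, of which 74 (87.1%) were called lower in H3K18cr and 58 (68.2%) in H3K18ac, against 65.7% and 52.5% for expressed genes. Where the RefSeq start lay over 1 kb from the deposited end, H3K18cr was called lower at 12 of 15 peaks of the set (80%, median -0.61) against 64.6% for expressed genes, and H3K18ac at 7 of 15 (46.7%, median -0.60) against 51.1% (median -0.67).

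**Figure D4:**
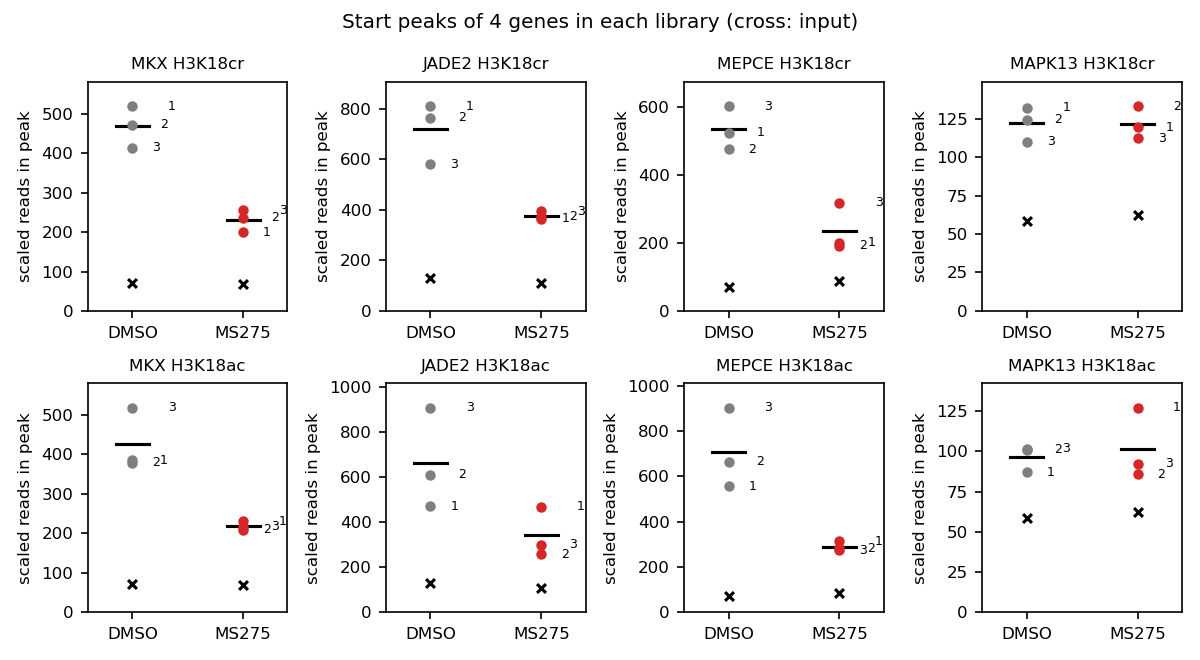
Scaled reads in the start peak of MKX, JADE2, MEPCE and MAPK13 (vertical axis, from 0) in each DMSO and MS275 library of H3K18cr (top) and H3K18ac (bottom), with replicate numbers beside the points, bars at the means and crosses for the input. The MS275 points lie below the DMSO points at MKX, JADE2 and MEPCE and among them at MAPK13.

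The share of start peaks called lower varied over the role groups, beside 62.5% (H3K18cr) and 49.4% (H3K18ac) for the start peaks of expressed genes. All 13 start peaks of transcription factors were called lower in both marks, with medians of -0.74 for H3K18cr and -0.95 for H3K18ac. NR2F1 was at -0.93 and -1.001, and the peak that HOXB8 and HOXB9 share was at -0.68 and -0.67. The RNA processing and translation group had the lowest acetylation median, -1.08, with 9 of 10 start peaks called lower (8 of 10 for H3K18cr, median -0.88). Protein turnover genes had 8 of 8 called lower in both marks. KEAP1 was among them, with changes of -0.97 and -1.19. Chromatin and general transcription genes had 7 of 8 called lower in H3K18cr and 6 of 8 in H3K18ac, metabolic and mitochondrial genes 8 of 12 in both, and antisense and noncoding loci 13 of 14 in both.

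Acetylation was called lower at a smaller share of start peaks in the signalling, immune and membrane groups. Innate immune and cell death genes had 9 of 13 called lower in H3K18cr (median -0.62) and 4 of 13 in H3K18ac (median -0.49), and at MYD88 the changes were -0.28 and -0.26 with neither called. Ligands, receptors and signalling enzymes had 8 of 9 in H3K18cr (median -0.70) and 3 of 9 in H3K18ac (median -0.64). Channels, transporters and junction genes had 3 of 8 and 2 of 8. Differences between role groups were not tested.

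Away from the set's own starts the marks changed less. The set's peaks here leave out only the start peaks of its own genes and may hold start peaks of other expressed genes. The peaks of expressed genes leave out all start peaks of expressed genes, so the shares below compare unlike peak sets. Of the peaks in or within 2 kb of the genes but not at the start, H3K18cr was called lower at 52 of 146 tested (35.6%, against 13.0% for expressed genes) and H3K18ac at 20 of 148 (13.5%, against 7.98%), with medians of -0.30 and -0.28. A peak at SERPINH1, which encodes a collagen chaperone (chr11:75565501-75566250), was the only one called higher, in H3K18ac (0.90, adjusted p = 0.0437), while the start peak of that gene was called lower in both marks (-0.65 and -0.70). With TMM scaling the medians away from starts were -0.06 and -0.03, with 23 called lower (15.8%) and 1 higher for H3K18cr, and 21 lower (14.2%) and 9 higher for H3K18ac. For expressed genes that scaling gave 4.67% lower and 287 of 13967 higher for H3K18cr, and 8.16% lower and 596 of 13987 higher for H3K18ac. PDE4B had 9 such peaks, none called, and no start peak.

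Start peaks with more reads were called lower more often across all expressed genes, so the set and other expressed genes were also placed side by side within 4 bins of start peaks by their mean scaled reads over the libraries of a mark, with 15 to 58 start peaks of the set in a bin. From the lowest to the highest bin, H3K18cr was called lower at 33.3%, 78.9%, 86.7% and 96.3% of the start peaks of the set and at 32.8%, 59.7%, 74.97% and 82.0% of those of other expressed genes. For H3K18ac the shares were 62.5%, 60%, 79.2% and 77.6% in the set and 22.8%, 41.0%, 62.4% and 70.9% in the others. The median change was lower in the set than in the others in 6 of the 8 bins. It was higher in the set in the lowest bin of H3K18cr, at -0.38 against -0.44, and in the highest bin of H3K18ac, at -0.79 against -0.86. Sharing of a start peak also moved with the calls. In the 66 start peaks with only 1 expressed gene in reach, 80.3% were called lower in H3K18cr and 63.6% in H3K18ac, against 58.4% and 44.5% for expressed genes.

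**Figure D5:**
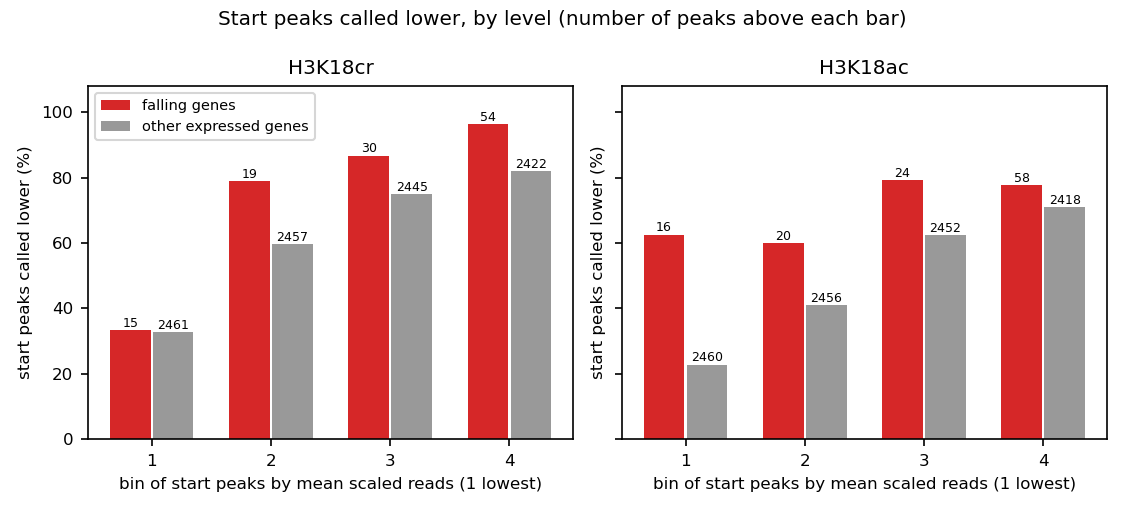
Percent of start peaks called lower (vertical axis, from 0) by bin of mean scaled reads (horizontal axis) for the set and for other expressed genes, in H3K18cr and H3K18ac. The share of the set lies above that of the others in each bin, by least in the lowest bin of H3K18cr (33.3% against 32.8%).

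The RNA change and the change in the marks were also set side by side across genes. Across 11291 expressed genes with a start peak, with RNA changes of either sign, Spearman's rho between the RNA change and the H3K18cr change was 0.33, and within the 116 genes of the set it was 0.094, where the rule had cut the range of RNA changes. For H3K18ac the values were 0.33 and 0.058. These are correlations across genes of 1 cell line, with no p given.

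In mouse colon epithelium, a gene of the same symbol was found for 102 of the 135. Of these, 89 (87.3%) had at least 1 CPM, against 89.8% of expressed genes and 70.6% of rising genes. An H3K18cr peak lay at the start of 83 (81.4%, against 78.2% and 59.7%) and an H3K4me3 peak, a mark of active promoters, at 95 (93.1%, against 91.7% for expressed genes). Mkx was present at 33.9 CPM. Gcnt3, a mucin-type glycan enzyme, and Cldn2, a claudin of tight junctions, which were low in HCT116, reached 670 and 545 CPM, while Nr2f1, Htr7, Elfn1 and F12 were listed at 0. Symbols were matched and orthology was not tested.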

How the data were processed

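The members and lists were chosen with earlier results of these data known. The genes named are MKX and JADE2, the 12 largest mean falls in RNA, the 6 highest mean CPM, members in a fixed list, the 4 lowest and 4 highest start peaks per mark, and 3 genes on either side of the threshold, and others are marked as chosen after their values were seen.

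The authors deposited raw RNA read counts per gene, made from trimmed and mapped reads. The submitters' processing notes name Trim Galore 0.4.2, TopHat2 2.0.12 and Bowtie2 2.2.5. HCT116 coordinates fit GRCh38. For the HCT116 peaks the authors deposited log2 values of reads per peak, scaled to the largest library, over 1 MACS peak list for all libraries. For the mouse colon peaks the authors deposited the scaled signal itself. At least 99.87% of peak values in each library came out as whole reads (tolerance 0.02), 1374609 to 5730094 in peaks per library. Intervals were not computed, and PCR reads are not independent molecules.

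CPM used the library total. RNA counts were tested with edgeR 4.0.16 (TMM, filterByExpr) and DESeq2 1.42.0, and log2 scaled reads with limma 3.58.1 on peaks of at least 10 scaled reads in 3 libraries, with Benjamini-Hochberg adjustment over all features at 0.05. Same-numbered RNA libraries deviated together, with correlations of 0.23, 0.15, 0.43 and 0.46 for numbers 1 to 4, so paired counts are given for RNA. Scripts were tested on simulated data. Alternatives were other scalings, pseudocounts, thresholds, filters, windows, tests, the replicate block and leaving out each replicate, those added after seeing the data being the block with a replicate left out or with TMM.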

Additional observations from a re-analysis of the deposited data

Results flagged for a closer look

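Among 66 groups of 4 RNA libraries examined, 4 held a library far from the other 3 by Dixon's criterion, and chance gives about 1 in 20 groups. These CPM values also chose the genes, so nothing is read from that number. In each it was DMSO replicate 3, the library with 9.28% of reads on mitochondrial genes, and in each it was the highest. IKBKG, a regulatory subunit of the NF-kB kinase, was at 19.6 CPM there and at 2.89 to 5.61 CPM in the other DMSO libraries. TMEM80, a transmembrane protein gene, was at 11.6 CPM against 5.12 to 5.70 CPM. AC009005.2, a locus overlapping BSG, was at 4.99 CPM against 2.51 to 2.74 CPM, and ZNF784, a zinc finger gene, at 7.91 CPM against 4.59 to 4.87 CPM. These values raise the mean DMSO level of the genes concerned, and the cause was not tested.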

How the results depend on the processing

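The number of genes in the set was 274 at a threshold of -0.3, 59 at -0.5 and 203 to 243 without 1 replicate pair. Other scalings, pseudocounts and CPM minimums gave 110 to 158. RNA calls over all genes, 1 without pairing, were 2151 with the replicate block (968, 994, 2584 and 1037 without replicates 1 to 4), 140 with DESeq2, 13 with no filter on low counts and 0 to 8 without 1 replicate. For H3K18cr, called lower at 150 peaks of the set and 98 start peaks, TMM gave 98 peaks, and leaving out 1 replicate gave 38 to 179 peaks and 31 to 109 start peaks, most without replicate 3. For H3K18ac, called lower at 106 peaks and 86 start peaks, leaving out 1 replicate gave 0 to 154 peaks and 0 to 106 start peaks, fewest without replicate 2 and most without replicate 1. The ChIP replicate numbers share only a number, with correlations of 0.11, 0.073 and 0.23 for H3K18cr and -0.21, 0.046 and -0.13 for H3K18ac. With the replicate block, 102 start peaks were called lower in H3K18cr, but 10 peaks and 9 start peaks in H3K18ac, and 84 when TMM went with the block. Over the whole list these 3 fits called 10448 of 40026, 805 of 40122 and 6104 of 40122 peaks lower. The H3K18ac calls at the start peaks of MKX and JADE2 were lost with the block (limma, adjusted p = 0.118 at both). The cause of these changes was not tested. The signs of the set's start peak medians held under these alternatives, and those medians moved by less than the spread, while TMM turned the sign of the medians of all peaks (H3K18cr -0.20 to 0.04, H3K18ac -0.19 to 0.07). Of the 118 start peaks, 7 were above 0 in each mark with TMM, in place of 1 for H3K18cr and 4 for H3K18ac. Among the start peaks named above, those whose estimates changed sign were not called in any of these fits. With TMM, with or without the replicate block, H3K18cr became 0.24 at MAPK13, 0.15 at NLRX1 and 0.14 at CLDN2. Without 1 replicate, H3K18cr ranged from -0.058 to 0.066 at MAPK13, from -0.36 to 0.31 at NLRX1 and from -0.31 to 0.058 at CLDN2, and H3K18ac from -0.19 to 0.20 at MAPK13, from -0.19 to 0.21 at SH3TC1 and from -0.21 to 0.17 at KCNN4.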
